A study of Mus musculus with 9 samples.

Results

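Guanylate-binding proteins (Gbp) and immunity-related GTPases (Irg) are 2 families of GTPases that interferons induce. 10 of their genes, Gbp2, Gbp3, Gbp4, Gbp5, Gbp6, Gbp7, Gbp8, Gbp9, Irgm1 and Igtp, were followed here among the 49671 genes of a deposited count table, found by matching Ensembl identifiers to these symbols. All 10 were in the table, and all 10 passed the filter on low counts that left 18374 genes for testing. The cells were splenic CD3+ T cells, enriched on columns, of female F1 hybrid mice. The mothers of these mice were C57BL/6 females that carried a heterozygous deletion of Xist, the fathers were castaneus males, and X inactivation in the offspring is skewed. Inhibitor cells were stimulated for 48 hours with anti-CD3 bound to the plate at 1 µg/ml and anti-CD28 in solution at 10 µg/ml, with IMD-0354 present at 2.5 µM. IMD-0354 is a small molecule that blocks IKK-beta, the kinase that frees NF-kB from its inhibitors. Stimulated cells had the same antibodies for 48 hours without IMD-0354, and unstimulated cells went into TRIzol directly after enrichment. Each group had 3 libraries of total RNA. The labels name neither a vehicle nor cells cultured without antibodies, so culture and stimulation cannot be told apart, and neither can the inhibitor and its solvent. No label ties a replicate to its own animal, and the p-values describe the spread among the libraries, part of which may be technical.

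Interferon-gamma binds its receptor on the cell surface, and the kinases Jak1 and Jak2 then start a signal that acts at gamma-activated sites in promoters and raises the factor Irf1. Gbp and Irg genes are among the most strongly induced targets of this pathway. Their proteins gather on the vacuoles of intracellular parasites and on bacterial membranes, and some take part in inflammasome assembly and autophagy. In mouse the Irgm proteins, Irgm1 and Igtp (also called Irgm3) among them, sit on the cell's own membranes and hold the effector Irg proteins in their inactive form. NF-kB factors can act at some of the same promoters, and T cells both make interferon-gamma and respond to it.

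Gbp5, Gbp7, Gbp3 and Gbp2 lie in this order on the forward strand of chromosome 3 (mm10 142493978 to 142638008, annotation GENCODE M21). Gbp2b, which is not among the 10, lies between Gbp3 and Gbp2. Gbp8, Gbp9, Gbp4 and Gbp6 lie on the reverse strand of chromosome 5 (105014150 to 105293698). Irgm1 (48861968 to 48871683, reverse strand) and Igtp (58199556 to 58207591, forward strand) lie apart on chromosome 11. All 10 are annotated as protein-coding. Some share sequence with relatives, which bears on how reads could be assigned. Of the 75-base windows along the exons, 67.3% of those of Gbp6 also occurred in other genes (Gbp10 and Gm43302 among them), 11.3% in Gbp7, 8.04% in Gbp8 and 7.80% in Igtp. The share was 3.61% or less in the other 6 genes and 0 in Irgm1. The value of Gbp6 is therefore uncertain as that of a single gene, and reads of the castaneus copies were compared with a C57BL/6 reference, an effect that was not tested.

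Promoter sequences are shown for the 4 of the 10 genes that lie on chromosome 3 and for Igtp, since these 5 genes took different courses. Gbp7, which fell with stimulation, held the same 2 kinds of element as Igtp, which rose. Gbp2, which rose, held the same single kind as Gbp3, which fell. Gbp5, which rose most, was the only one with a kappaB element. Whether the elements bear on the courses was not tested. RefSeq (GRCm38.p6, the assembly of mm10) held windows for 6 of the 10 genes. Gbp4, Gbp6, Gbp8 and Gbp9 had none in the table used. Each window is the 250 bases upstream of the RefSeq start, 5′ to 3′ on the gene's strand, which is the forward strand for all 5 shown. They lie at chr3:142496684-142496933 for Gbp5, chr3:142530086-142530335 for Gbp7, chr3:142620413-142620662 for Gbp2, chr11:58199306-58199555 for Igtp and chr3:142559794-142560043 for the first of the 2 windows of Gbp3. The Gbp5 window lies inside the gene as annotated in GENCODE M21, which starts at 142493978. Capitals mark matches on either strand to a gamma-activated site (TTCNNNGAA), an interferon-stimulated response element (GAAANNGAAA) or a kappaB element of NF-kB (GGGANTTTCC).
Gbp5: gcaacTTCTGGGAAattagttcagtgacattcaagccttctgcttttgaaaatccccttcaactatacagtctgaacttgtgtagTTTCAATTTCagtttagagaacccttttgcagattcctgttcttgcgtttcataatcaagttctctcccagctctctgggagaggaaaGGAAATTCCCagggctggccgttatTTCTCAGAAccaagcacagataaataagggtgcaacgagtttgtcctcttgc
Gbp7: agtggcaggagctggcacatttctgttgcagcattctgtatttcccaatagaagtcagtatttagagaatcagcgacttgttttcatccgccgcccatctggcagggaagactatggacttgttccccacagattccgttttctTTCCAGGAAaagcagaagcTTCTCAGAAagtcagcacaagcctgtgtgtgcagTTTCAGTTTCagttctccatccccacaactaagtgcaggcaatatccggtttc
Gbp2: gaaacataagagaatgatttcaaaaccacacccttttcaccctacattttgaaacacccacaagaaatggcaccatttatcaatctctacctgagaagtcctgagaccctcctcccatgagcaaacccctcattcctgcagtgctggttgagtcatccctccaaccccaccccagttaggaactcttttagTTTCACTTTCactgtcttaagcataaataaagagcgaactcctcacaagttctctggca
Igtp: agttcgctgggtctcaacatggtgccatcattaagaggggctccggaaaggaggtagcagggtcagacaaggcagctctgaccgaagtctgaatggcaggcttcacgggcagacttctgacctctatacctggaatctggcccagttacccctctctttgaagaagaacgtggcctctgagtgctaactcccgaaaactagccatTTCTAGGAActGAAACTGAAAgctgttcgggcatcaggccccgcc
Gbp3: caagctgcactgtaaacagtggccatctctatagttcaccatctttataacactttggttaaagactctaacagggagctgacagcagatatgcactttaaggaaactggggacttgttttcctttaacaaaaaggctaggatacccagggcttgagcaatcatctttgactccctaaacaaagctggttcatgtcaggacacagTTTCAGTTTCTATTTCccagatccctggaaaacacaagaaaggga

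The Gbp5 window held all 3 kinds of element. Its gamma-activated sites stood at -245 to -237 and -52 to -44, its response element at -165 to -156 and its kappaB element at -77 to -68, counted from the base before the start as -1. Gbp7 had gamma-activated sites at -106 to -98 and -87 to -79 and a response element at -53 to -44. Igtp had a gamma-activated site at -45 to -37 with a response element close after it at -34 to -25. Gbp2 held a response element at -59 to -50 and none of the other elements. In Gbp3, 2 response elements overlapped, at -45 to -36 and -39 to -30. Over all 7 windows of the 6 genes, the response element was found in 6, the gamma-activated site in 3 (Gbp5, Gbp7 and Igtp) and the kappaB element in 1. Of the 32851 RefSeq windows of this length, 2.98% held a response element, 7.02% a gamma-activated site, 0.356% a kappaB element, and 0.332% held the first 2 together, against 3 of the 7. A match is a string of letters in the window and was not tested as a bound site.

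Expression was first compared per length of exon, since longer genes collect more reads. The length joins the exons of all annotated transcripts of a gene, from 2022 bases for Igtp to 7494 for Gbp4. The order of the genes depends on this choice. Levels are CPM (counts divided by library size after TMM scaling) per kilobase of exon, as mean ± SD over 3 libraries. Igtp was highest in inhibitor cells at 193 ± 17.1 and in stimulated cells at 86.2 ± 7.005, and was 34.97 ± 7.65 in unstimulated cells. Gbp2 came next in inhibitor cells at 129 ± 9.35 and in stimulated cells at 35.8 ± 7.85, with 20.1 ± 2.16 in unstimulated cells. In unstimulated cells Gbp3 had the highest mean, 37.4, but its libraries overlapped those of Igtp. Gbp6 was lowest in every group, at 2.71, 0.512 and 0.914 CPM per kb in inhibitor, stimulated and unstimulated cells, and its libraries overlapped those of Irgm1 (3.05 CPM per kb) in inhibitor cells. The rank of Gbp6 is uncertain, since most of its exon windows also occur in other genes.

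The order of the other genes changed with the group. In inhibitor cells Gbp5 followed at 53.6 CPM per kb, with Gbp4 and Gbp3, which did not separate, after it, then Gbp7 and Gbp9, which did not separate, and Gbp8. In stimulated cells Gbp3 followed at 26.2 CPM per kb, then came Gbp5, next Gbp7, Gbp9 and Gbp4, whose neighbours in this order overlapped, and then Gbp8. In unstimulated cells Gbp9 and Gbp2 followed Igtp without separating from each other, then came Gbp7 and Gbp4, and Gbp8 and Gbp5 were near the bottom at 7.56 and 7.14 CPM per kb. Gbp5 thus had rank 3 of the 10 in inhibitor cells, rank 4 in stimulated cells and rank 8 in unstimulated cells.

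The make-up of the summed level differed between the groups. Igtp, Gbp2 and Gbp5 had their smallest share in unstimulated cells, and Gbp3, Gbp4, Gbp7 and Gbp9 had their largest share there. A share depends on the other genes too. That of Gbp3 was lower in inhibitor than in stimulated cells, although its level was not (30.1 and 26.2 CPM per kb). Igtp supplied 39.8% ± 3.44 of the summed CPM per kb in inhibitor cells, 44.8% ± 1.27 in stimulated cells and 21.7% ± 2.56 in unstimulated cells (SD, n = 3 each). Gbp2 supplied 26.5% ± 1.55, 18.5% ± 2.31 and 12.6% ± 1.40 in inhibitor, stimulated and unstimulated cells. Gbp5, which promotes assembly of the NLRP3 inflammasome in mouse macrophages, gave 11.01% ± 0.772 in inhibitor cells and 11.2% ± 0.211 in stimulated cells, against 4.48% ± 0.154 in unstimulated cells. The share of Gbp3 was 6.19% ± 0.118 in inhibitor, 13.7% ± 1.10 in stimulated and 23.3% ± 1.09 in unstimulated cells. That of Gbp9 was 3.42% ± 0.253, 2.95% ± 0.0985 and 13.7% ± 1.04. In the same order of groups, Gbp4 gave 6.4%, 2.8% and 9.0%, and Gbp7 3.8%, 3.6% and 9.0%.

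**Figure D1:**
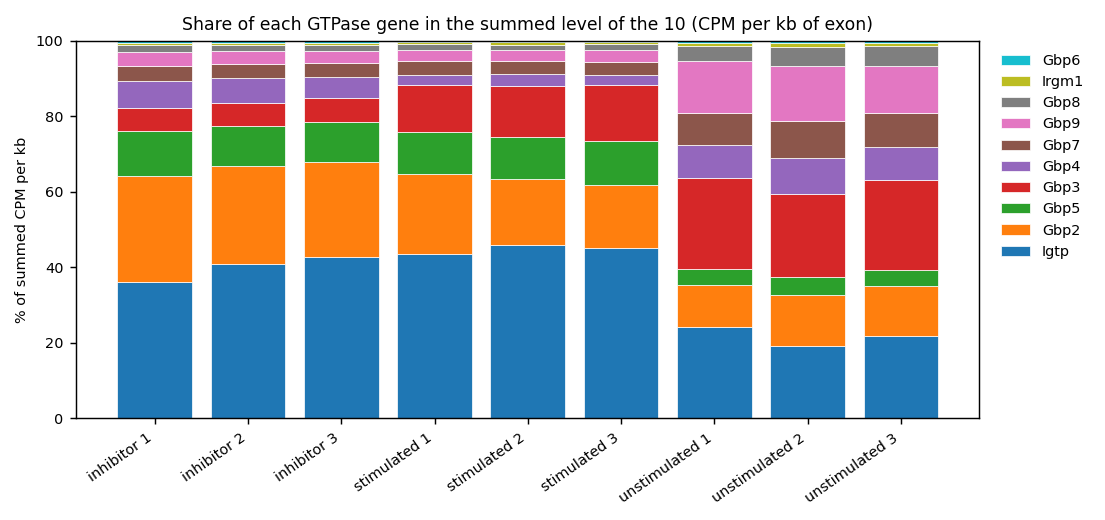
Stacked bars of each library, inhibitor left, then stimulated and unstimulated, with the share (%) of each gene in the summed CPM per kb of the 10. Igtp and Gbp2 fill most of the inhibitor bars, and Gbp3 and Gbp9 are widest in the unstimulated bars.

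After stimulation the genes went in both directions. Of the 10 genes, 3 rose (Gbp2, Gbp5 and Igtp) and 6 fell (Gbp3, Gbp4, Gbp6, Gbp7, Gbp8 and Gbp9) in stimulated against unstimulated cells, at an adjusted p below 0.05 in edgeR's quasi-likelihood test over all 18374 genes. Irgm1 was not called. Over all genes 32.0% were higher and 34.0% lower by this rule, so that the 3 of 10 that rose lie near the background and 6 of 10 fell. The median log2 fold change of the 10 was -0.67, against -0.05 over all genes tested. The libraries of the 3 genes that rose lay wholly above those of unstimulated cells, as did 35.4% of all genes, and those of the 6 that fell lay wholly below, as did 37.5%. The summed CPM of the 10 was 679, 624 and 564 in stimulated libraries 1, 2 and 3, against 663, 558 and 670 in the unstimulated libraries, which overlap.

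With the inhibitor nearly all of these genes were higher. In inhibitor against stimulated cells 9 of the 10 rose and 0 fell, against 21.7% of all genes that rose and 22.8% that fell. All 9 were at least 2-fold higher, as were 9.31% of all genes, with folds from 2.13 for Irgm1 to 5.75 for Gbp4. Gbp3 was not called, although in all 10 genes, Gbp3 included, the 3 inhibitor libraries lay above the 3 stimulated libraries, which held for 28.0% of all genes. The median log2 fold change was 1.49, against 0.03 over all genes. The summed CPM of the 10 was 1697, 1716 and 1550 in inhibitor libraries 1, 2 and 3, against 679, 624 and 564 in stimulated libraries, so that the groups did not overlap.

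Against unstimulated cells, inhibitor cells had higher levels of 7 genes (Gbp2, Gbp4, Gbp5, Gbp6, Gbp7, Igtp and Irgm1) and lower levels of 2 (Gbp3 and Gbp9), and Gbp8 was not called. Of all genes 26.3% were higher and 26.1% lower. Of the 7, 6 were at least 2-fold higher, as were 10.8% of all genes, with Gbp7 the exception. The median log2 fold change was 1.11, against -0.001 over all genes. All inhibitor libraries lay above all unstimulated libraries for the same 7 genes (29.4% of all genes) and below them for Gbp9 (30.5% of all genes). For these 7 genes each inhibitor library therefore exceeded all 6 others, as in 9.11% of all genes.

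The comparisons of inhibitor with stimulated and of stimulated with unstimulated cells share the stimulated libraries, so values are set side by side and not correlated. Gbp4, Gbp6, Gbp7, Gbp8 and Gbp9 fell with stimulation and were higher with the inhibitor than without it, a sequence of calls seen in 15.3% of all genes. Gbp2, Gbp5 and Igtp rose with stimulation and were higher still with the inhibitor, as were 1.88% of all genes.

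**Figure D2:**
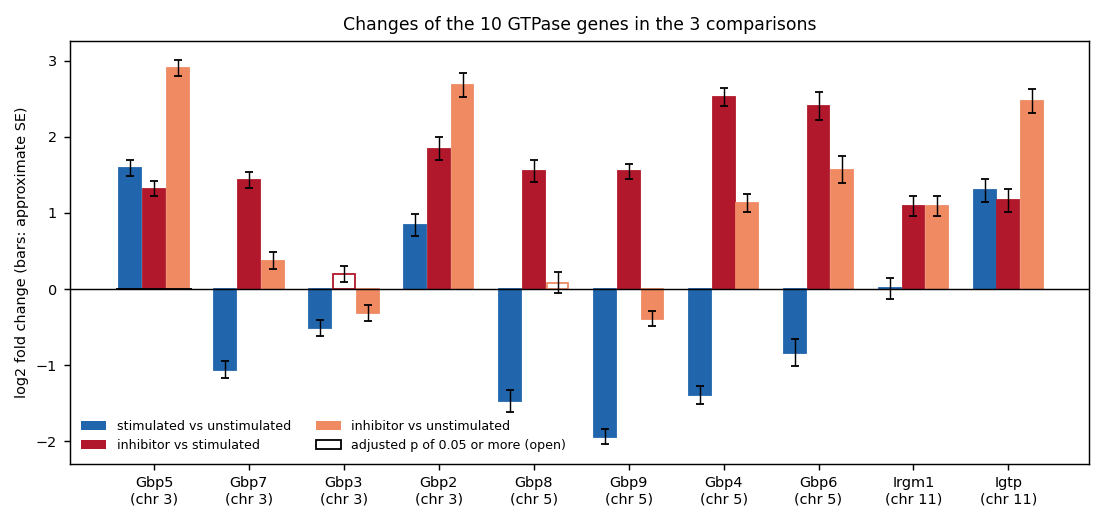
Log2 fold change of each of the 10 genes, with an approximate SE as bar, as 1 column for each of the 3 comparisons, open where the adjusted p is 0.05 or more. Values of inhibitor against stimulated cells lie between 0.20 for Gbp3 and 2.52 for Gbp4, and those of stimulated against unstimulated cells between -1.94 for Gbp9 and 1.59 for Gbp5.

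Among the 10, the genes on chromosome 3 held the most varied responses. Gbp5 (ENSMUSG00000105504, 142493978 to 142522344) had 382, 361 and 323 CPM in inhibitor libraries 1, 2 and 3, 156, 141 and 132 CPM in the stimulated libraries, and 49.4, 42.7 and 50.1 CPM in the unstimulated libraries. The 3 groups did not overlap. Its log2 fold change was 1.59 ± 0.10 in stimulated against unstimulated cells (SE; adjusted p = 5.6e-07), 1.32 ± 0.10 in inhibitor against stimulated cells (adjusted p = 7e-06) and 2.91 ± 0.10 in inhibitor against unstimulated cells (adjusted p = 4.4e-08). The last is a 7.50-fold difference and the largest of the 10 in that comparison.

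Gbp2 (ENSMUSG00000028270, 142620602 to 142638008), whose protein restricts Toxoplasma in mouse, had 345, 329 and 298 CPM in inhibitor libraries, 112, 85.0 and 73.5 CPM in stimulated libraries and 47.1, 47.6 and 56.7 CPM in unstimulated libraries. The groups stood apart in the same order as for Gbp5, with stimulated library 1 the highest of its group. Gbp2 rose by 0.84 ± 0.15 on the log2 scale with stimulation (adjusted p = 0.00057). It was 1.85 ± 0.15 higher in inhibitor than in stimulated cells (adjusted p = 1.1e-05), a 3.59-fold difference, and 2.68 ± 0.15 higher than in unstimulated cells (adjusted p = 5.8e-07).

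Gbp7 (ENSMUSG00000040253, 142530342 to 142550149), which in mouse macrophages helps to bring oxidase and autophagy components to bacteria, took another course. It had 106, 107 and 99.5 CPM in inhibitor libraries, 43.7, 39.4 and 32.6 CPM in stimulated libraries and 79.7, 76.0 and 85.2 CPM in unstimulated libraries. Stimulated cells were thus lowest and inhibitor cells highest, with no overlap. The log2 fold change was -1.06 ± 0.11 with stimulation (adjusted p = 1.4e-05) and 1.43 ± 0.11 in inhibitor against stimulated cells (adjusted p = 7.3e-06). Inhibitor cells exceeded unstimulated cells by only 0.38 ± 0.11 (adjusted p = 0.014), a call lost without inhibitor library 2 (0.35, adjusted p = 0.052, with 0.0054 to 0.085 over all settings).

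Gbp3 (ENSMUSG00000028268, 142560026 to 142573209), also recruited to Toxoplasma vacuoles in mouse, varied least. Its levels were 97.0, 101 and 96.5 CPM in inhibitor libraries, 87.1, 85.7 and 84.1 CPM in stimulated libraries and 133, 99.5 and 133 CPM in unstimulated libraries. Inhibitor libraries lay just above the stimulated ones, and unstimulated library 2 lay within the range of the inhibitor libraries. Gbp3 fell by 0.51 ± 0.11 with stimulation (log2, adjusted p = 0.0019). The difference between inhibitor and stimulated cells was 0.20 ± 0.11 (adjusted p = 0.17), which was called without unstimulated library 2 (0.19, adjusted p = 0.035, with 0.021 to 0.37 over all settings). With only the 6 libraries of these groups it was called both without the replicate number as a block (0.21, adjusted p = 0.026) and with it (0.21, adjusted p = 0.021). Inhibitor cells were lower than unstimulated cells, with a log2 fold change of -0.32 ± 0.11 (adjusted p = 0.032). This call was lost when unstimulated library 1 or 3 or any single inhibitor library was left out (adjusted p up to 0.12, with 0.00058 as the lowest over all settings).

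All 4 of the 10 genes that lie on chromosome 5 fell with stimulation and were higher with the inhibitor. Their relatives Gbp10 and Gbp11, also on chromosome 5, are described below. Log2 fold changes lay between -1.94 and -0.84 in stimulated against unstimulated cells and between 1.55 and 2.52 in inhibitor against stimulated cells. Gbp4 (ENSMUSG00000079363, 105115767 to 105139586), which in mouse was found to bind the interferon factor Irf7, had 258, 248 and 196 CPM in inhibitor libraries, 40.9, 44.1 and 37.1 CPM in stimulated libraries and 112, 97.2 and 112 CPM in unstimulated libraries. The 3 groups did not overlap. Its fold change of inhibitor against stimulated cells, 2.52 ± 0.12 on the log2 scale (5.75-fold, adjusted p = 6.6e-07), was the largest of the 10. Stimulated cells were 1.40 ± 0.12 below unstimulated cells (log2 fold change -1.40, adjusted p = 3.7e-06), and inhibitor cells were 1.13 ± 0.12 above them (adjusted p = 2.5e-05).

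Gbp6 (ENSMUSG00000104713, 105270702 to 105293698) followed Gbp4 at a lower level, with the doubt about shared reads given above. It had 15.1, 17.3 and 16.1 CPM in inhibitor libraries, 3.36, 3.37 and 2.41 CPM in stimulated libraries and 5.97, 4.62 and 5.74 CPM in unstimulated libraries. No groups overlapped. The log2 fold change was -0.84 ± 0.18 in stimulated against unstimulated cells (adjusted p = 0.0021), 2.41 ± 0.18 in inhibitor against stimulated cells (adjusted p = 7.5e-06) and 1.57 ± 0.18 in inhibitor against unstimulated cells (adjusted p = 4.8e-05).

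Gbp9 and Gbp8 differed from Gbp4 and Gbp6 in where inhibitor cells stood against unstimulated cells. Gbp9 (ENSMUSG00000029298, 105077630 to 105139539), a further protein recruited to Toxoplasma vacuoles in mouse, had 92.6, 87.7 and 77.5 CPM in inhibitor libraries, 32.0, 28.5 and 27.4 CPM in stimulated libraries and 121, 105 and 112 CPM in unstimulated libraries. Inhibitor cells lay between the other groups without overlap. Gbp9 had the strongest fall of the 10 with stimulation, a log2 fold change of -1.94 ± 0.10 (adjusted p = 1.8e-07). It was 1.55 ± 0.10 higher in inhibitor than in stimulated cells (adjusted p = 3e-06) and, against unstimulated cells, had a log2 fold change of -0.39 ± 0.10 (adjusted p = 0.0067).

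Gbp8 (ENSMUSG00000034438, 105014150 to 105139540) had 30.4, 28.3 and 24.1 CPM in inhibitor libraries, 10.0, 8.65 and 9.56 CPM in stimulated libraries and 23.7, 23.9 and 30.6 CPM in unstimulated libraries. Stimulated cells stood apart below both other groups, which overlapped. The log2 fold change was -1.47 ± 0.14 with stimulation (adjusted p = 9.9e-06) and 1.55 ± 0.14 in inhibitor against stimulated cells (adjusted p = 2.4e-05). Inhibitor and unstimulated cells differed by 0.08 ± 0.14 (adjusted p = 0.64), a difference whose sign turned under 3 of the other settings.

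**Figure D3:**
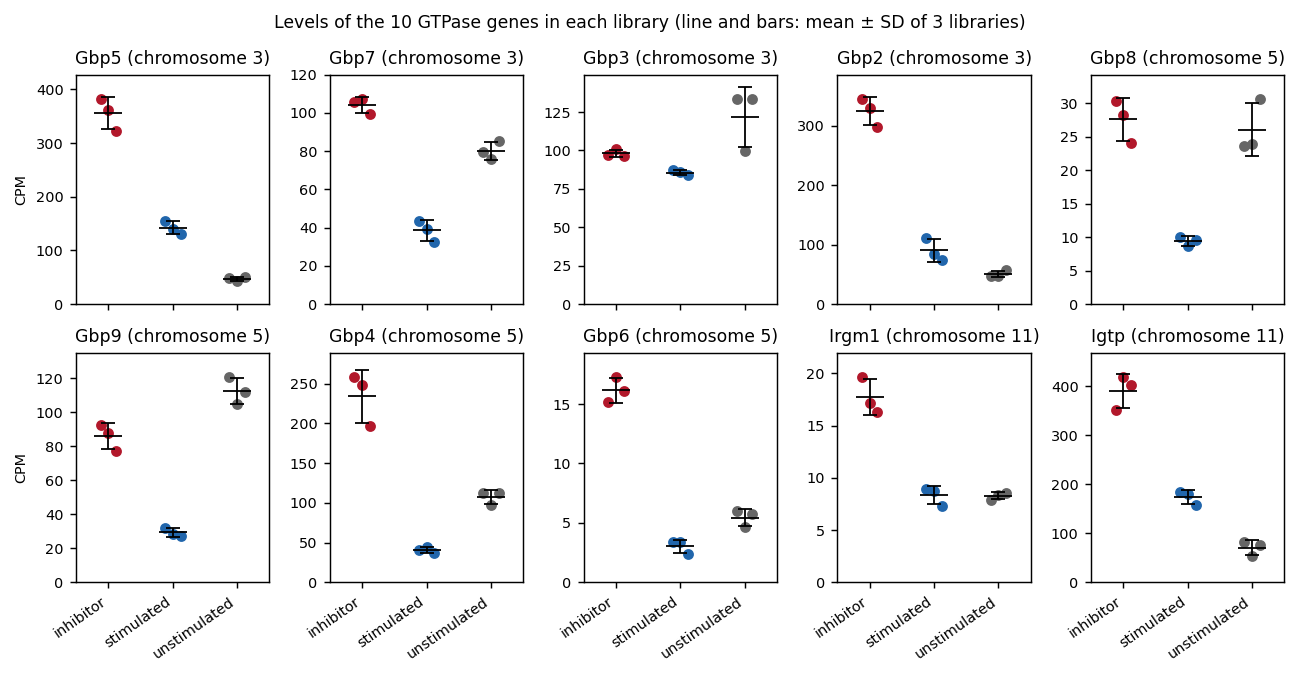
CPM of each gene in every library (points), with the mean and SD of 3 libraries, one panel per gene, inhibitor left, then stimulated and unstimulated. Inhibitor points lie above all others for Gbp2, Gbp4, Gbp5, Gbp6, Gbp7, Igtp and Irgm1, and unstimulated points are highest for Gbp9.

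Igtp and Irgm1, the 2 Irgm genes followed here, lie on chromosome 11 and were both higher with the inhibitor, from different starting points. Irgm2, described below, also lies on chromosome 11 and overlaps Igtp on the same strand. It shares 8.01% of the exon bases of Igtp. Igtp (ENSMUSG00000078853) encodes a regulatory GTPase of the endoplasmic reticulum. It had 352, 419 and 403 CPM in inhibitor libraries, 185, 179 and 158 CPM in stimulated libraries and 83.2, 53.4 and 75.6 CPM in unstimulated libraries. The groups did not overlap, and unstimulated library 2 was the lowest of its group. Igtp rose by 1.30 ± 0.15 with stimulation (log2, adjusted p = 3.3e-05). In inhibitor cells it was 1.17 ± 0.15 higher than in stimulated cells (2.25-fold, adjusted p = 0.00019) and 2.47 ± 0.16 higher than in unstimulated cells (adjusted p = 1.1e-06).

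Irgm1 (ENSMUSG00000046879), which in mouse is needed for the survival of effector T cells exposed to interferon-gamma, had 19.6, 17.1 and 16.4 CPM in inhibitor libraries. It had 8.92, 8.73 and 7.34 CPM in stimulated libraries and 7.89, 8.40 and 8.55 CPM in unstimulated libraries. The unstimulated libraries lay within the range of the stimulated ones, and the inhibitor libraries stood above both. The log2 fold change was 0.01 ± 0.13 with stimulation (adjusted p = 0.96), 1.09 ± 0.13 in inhibitor against stimulated cells (adjusted p = 0.00014) and 1.10 ± 0.13 in inhibitor against unstimulated cells (adjusted p = 7.9e-05). The sign of the value with stimulation was not stable across settings.

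The 10 genes fell into groups of similar course over the 9 libraries. As a description of log2 CPM over libraries of 3 groups, which share their group differences, Gbp5 and Igtp were the closest pair (Pearson r = 0.989), followed by Gbp4 and Gbp7 (r = 0.968). Gbp8 was closest to Gbp7 (r = 0.960) and Gbp9 to Gbp8 (r = 0.956). Gbp3 and Gbp5 were least alike (r = -0.529). Gbp6 had the highest mean r with the other 9 genes, 0.715, and Gbp3 the lowest, 0.142.

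The genes most like Gbp6, among 10436 other tested genes with a mean of at least 5 CPM, were Bach2 (r = 0.9949), Dnajc1 (r = 0.9923), H13 (r = 0.9909), Sfmbt2 (r = 0.9882) and Irgm2 (r = 0.9878). Igip, 9330175E14Rik, Tgif1, Cog5 and Smim10l1 followed, down to r = 0.9851. Only Irgm2 of these 10 belongs to the same GTPases. Bach2, a repressor that restrains effector differentiation of T cells, averaged 392 CPM in inhibitor, 198 CPM in stimulated and 246 CPM in unstimulated cells.

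**Figure D4:**
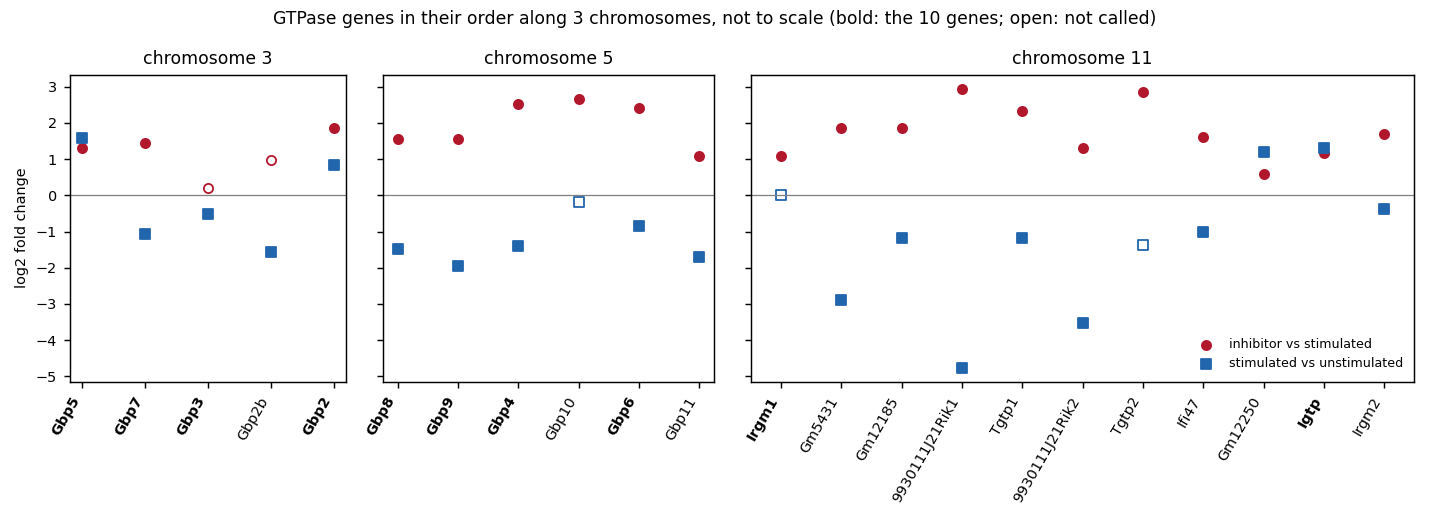
Log2 fold changes of Gbp and Irg genes in their order along chromosomes 3, 5 and 11 (spacing not to scale) in inhibitor against stimulated cells (circles) and stimulated against unstimulated cells (squares), the 10 genes in bold and genes not called as open symbols. On chromosome 5 the values of Gbp8, Gbp9, Gbp4 and Gbp6 lie above 1.5 in inhibitor against stimulated cells and below -0.8 in stimulated against unstimulated cells.

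Most relatives of the 10 genes were also higher with the inhibitor than without it. Of 20 other Gbp, Irg and very large interferon-inducible GTPase genes, 18 were tested. In stimulated against unstimulated cells 1 rose (Gm12250) and 13 fell, against 32.0% and 34.0% of all genes. The median log2 fold change was -1.28. Gm12250 is annotated as a processed pseudogene and averaged 42.2, 28.1 and 12.3 CPM in inhibitor, stimulated and unstimulated cells. With the inhibitor against stimulated cells 16 rose, 0 fell and 2 were not called, against 21.7% of all genes that rose and 22.8% that fell, with a median of 1.65. In inhibitor against unstimulated cells 8 rose and 6 fell, against 26.3% and 26.1% of all genes, with a median of 0.64. Several of these share most of their exon windows with other genes, 77.8% in Gbp10 and 77.2% in Tgtp1. The share was higher still in Gvin1 (98.3%) and Gm4070 (96.7%), which are named for this share only. Reads may move between such genes, so the 18 are not all separate measurements.

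Irgm2, another regulatory Irgm gene, averaged 104 ± 7.82 CPM in inhibitor, 32.4 ± 2.56 CPM in stimulated and 42.4 ± 5.94 CPM in unstimulated cells, 1.69 higher on the log2 scale in inhibitor than in stimulated cells (adjusted p = 4.9e-06). Of the effector Irg genes, Iigp1 averaged 20.4 ± 4.12, 2.99 ± 0.896 and 4.06 ± 1.67 CPM in inhibitor, stimulated and unstimulated cells, with a log2 fold change of 2.77 in inhibitor against stimulated cells (adjusted p = 9.5e-05). It had no called change with stimulation (-0.44, adjusted p = 0.23). Tgtp1 and Ifi47 fell with stimulation (-1.18 and -1.02) and were higher with the inhibitor than without it (2.33 and 1.62). Among the Gbp relatives, Gbp10 averaged 12.6 CPM in inhibitor, 2.01 CPM in stimulated and 2.30 CPM in unstimulated cells, 2.65 higher in inhibitor than in stimulated cells (adjusted p = 0.00012). Gbp11, annotated as a polymorphic pseudogene, was near 1 CPM (1.32, 0.616 and 2.01 CPM in inhibitor, stimulated and unstimulated cells). Gbp2b, the neighbour of Gbp2 on chromosome 3, had 1.54, 0.787 and 2.35 CPM and no called difference between inhibitor and stimulated cells (0.96, adjusted p = 0.078).

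Transcripts of interferon-gamma itself (Ifng) and of its receptor chain Ifngr1 were lower in inhibitor than in stimulated cells. Ifng averaged 125 ± 32.2 CPM in inhibitor cells, 260 ± 33.0 CPM in stimulated cells and 12.03 ± 2.27 CPM in unstimulated cells. It rose by 4.44 with stimulation (log2, adjusted p = 1.2e-07) and was lower in inhibitor than in stimulated cells (-1.05, adjusted p = 0.0014), where 9 of the 10 GTPases were higher. Ifngr1, the ligand-binding receptor chain, had 41.6 ± 2.50, 59.7 ± 6.16 and 238 ± 22.6 CPM in inhibitor, stimulated and unstimulated cells, with a log2 fold change of -0.52 in inhibitor against stimulated cells (adjusted p = 0.0021). Ifngr2, the signalling chain, was 0.41 higher in inhibitor than in stimulated cells (adjusted p = 0.0086). Ifnb1 had 0 counts in all 9 libraries.

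Irf1, a factor known to act on promoters of Gbp and Irg genes, was lower in stimulated than in unstimulated cells and higher in inhibitor than in stimulated cells. Irf1 averaged 341 ± 35.1 CPM in inhibitor, 89.8 ± 3.37 CPM in stimulated and 189 ± 31.4 CPM in unstimulated cells, with log2 fold changes of -1.07 with stimulation (adjusted p = 3e-05) and 1.93 in inhibitor against stimulated cells (adjusted p = 3.1e-06). Irf2, a factor that competes with Irf1, was 1.11 higher in inhibitor than in stimulated cells (adjusted p = 4.7e-06). Irf8 had no called difference there (0.26, adjusted p = 0.12).

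Socs1 and Ptpn2, negative regulators of the pathway, were higher in stimulated than in unstimulated cells and lower in inhibitor than in stimulated cells. Socs1, which blocks the Jak kinases, averaged 44.8 ± 14.2 CPM in inhibitor cells, 141 ± 18.8 CPM in stimulated cells and 26.6 ± 5.96 CPM in unstimulated cells. It rose by 2.41 with stimulation (adjusted p = 1.4e-05) and was lower with the inhibitor than without it (log2 fold change -1.66, adjusted p = 0.00039). Ptpn2, a phosphatase that removes phosphate from Jak1, rose by 1.67 with stimulation (adjusted p = 2.6e-07) and had a log2 fold change of -1.04 in inhibitor against stimulated cells (adjusted p = 1.8e-05). Of the 16 tested genes of the signalling list, 8 rose and 6 fell in inhibitor against stimulated cells (21.7% and 22.8% of all genes, median 0.33), and 6 rose and 10 fell with stimulation (32.0% and 34.0% of all genes, median -0.56).

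Other genes known to respond to interferon-gamma were mixed. Of 19 tested, 7 rose and 10 fell in stimulated against unstimulated cells (32.0% and 34.0% of all genes, median log2 fold change -0.31). Between inhibitor and stimulated cells 11 rose and 4 fell (21.7% and 22.8% of all genes, median 0.79), and in inhibitor against unstimulated cells 10 rose and 5 fell (26.3% and 26.1% of all genes, median 0.45). The largest rises with the inhibitor were those of the chemokine genes Cxcl9 (4.15, adjusted p = 0.00011) and Cxcl10 (3.04, adjusted p = 0.00062) and of Ciita, the regulator of MHC class II (2.09, adjusted p = 0.00051). Cxcl9, Cxcl10 and Ciita were low in stimulated cells (0.166, 0.455 and 2.30 CPM) and averaged 2.96, 3.76 and 9.79 CPM in inhibitor cells. The folds of the chemokine genes thus rest on few counts. Nlrc5, the regulator of MHC class I, averaged 384 ± 22.9 CPM in inhibitor, 158 ± 19.2 CPM in stimulated and 308 ± 15.1 CPM in unstimulated cells, with log2 fold changes of -0.96 with stimulation (adjusted p = 1.2e-05) and 1.28 with the inhibitor (adjusted p = 7.1e-06). Serpina3g (-1.59), the immunoproteasome subunit gene Psmb8 (-0.71) and the tRNA synthetase gene Wars (-0.68) were lower in inhibitor than in stimulated cells.

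Most antiviral genes best known as targets of type I interferon were lower in inhibitor than in stimulated cells. Of 24 tested, 3 rose and 16 fell in inhibitor against stimulated cells (21.7% and 22.8% of all genes, median log2 fold change -1.34). The largest falls were those of Mx2 (-3.81, adjusted p = 1.1e-06), Oas3 (-2.88, adjusted p = 3.5e-06) and Usp18 (-2.70, adjusted p = 1.1e-05). Mx2, a dynamin-like GTPase, averaged 1.38 CPM in inhibitor, 19.6 CPM in stimulated and 25.6 CPM in unstimulated cells. The 3 that rose were Ifit1 (0.94), Ifit2 (0.68) and Ifit3 (1.80), the last at 0.299 CPM in inhibitor and 0.0834 CPM in stimulated cells and named outside the rule. Against unstimulated cells, 23 of the 24 were lower in inhibitor cells (26.1% of all genes), and Bst2, which tethers virus particles to the cell, was higher (1.40, adjusted p = 0.00042). With stimulation 4 rose and 16 fell (32.0% and 34.0% of all genes).

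**Figure D5:**
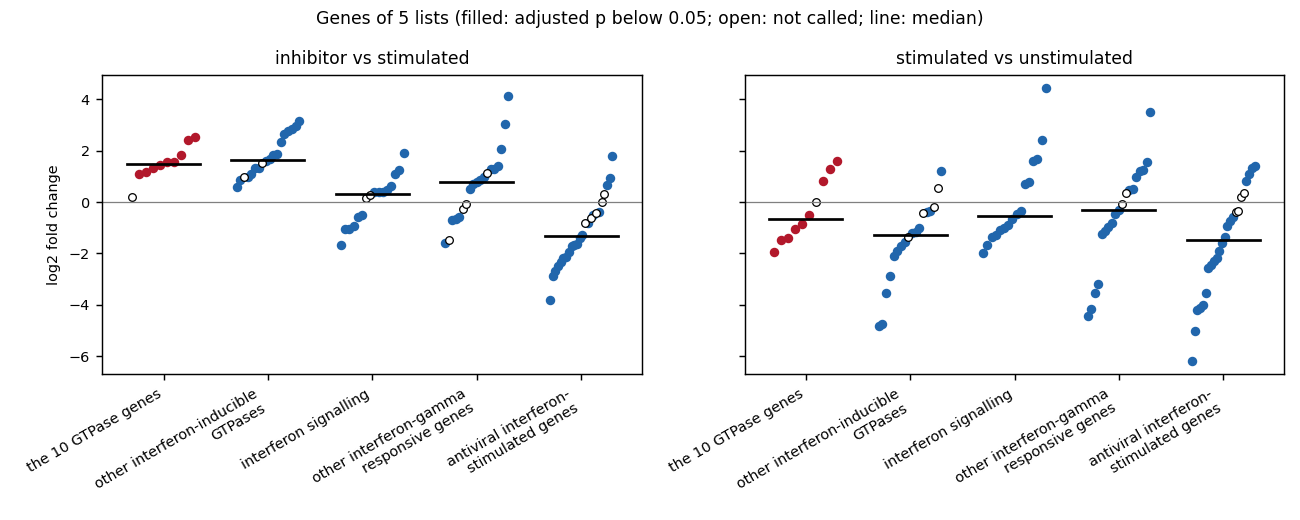
Log2 fold changes of the tested genes of 5 lists, inhibitor against stimulated cells left and stimulated against unstimulated cells right, each point a gene, filled where the adjusted p is below 0.05, with the list's median as a line. In inhibitor against stimulated cells the median is 1.49 for the 10 GTPase genes and 1.65 for the other GTPases, against -1.34 for the type I interferon targets.

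Genes whose products process or act with these GTPases varied gene by gene. Of 8 genes of prenylation, the lipid modification that anchors some Gbp proteins such as Gbp2 and Gbp5 to membranes, 5 rose and 0 fell with stimulation (32.0% and 34.0% of all genes). Fdps, which makes the lipid precursor, rose by 3.27 (adjusted p = 4.4e-06). In inhibitor against stimulated cells 3 rose, with Rce1, the protease of prenylated proteins, at 0.75 (adjusted p = 0.0037), and 2 fell, with Fdps at -1.08 (adjusted p = 0.0067). Of all genes 21.7% rose and 22.8% fell there. Of 10 genes of the ATG8 conjugation system, which guides Irg and Gbp proteins to vacuoles, 1 rose with stimulation (Gabarapl1, 2.25) and 8 fell (Map1lc3b, -2.41), against 32.0% of all genes that rose and 34.0% that fell. In inhibitor against stimulated cells 3 rose (Gabarap 0.97, Map1lc3b 0.96 and Atg5 0.44) and Gabarapl1 fell (-1.03), against 21.7% and 22.8% of all genes.

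Of 8 inflammasome genes, 1 rose and 6 fell in stimulated against unstimulated cells, against 32.0% and 34.0% of all genes. Casp4, the mouse caspase-11 gene, rose by 0.77 (adjusted p = 0.0011), and Nlrp3 and Il1b averaged 0.266 and 0.672 CPM in stimulated cells, against 38.0 and 102 CPM in unstimulated cells. In inhibitor against stimulated cells 4 rose, Casp1 (0.78) and Aim2 (0.41) among them, and Pycard fell (-0.60), against 21.7% and 22.8% of all genes. These falls with stimulation ran beside the loss of myeloid markers described next.

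Markers of other cells moved between the groups, which bears on every comparison. In bulk RNA fewer cells of a type and less RNA per cell cannot be told apart. T cell markers summed to 2630 to 2736 CPM in inhibitor, 2632 to 2794 CPM in stimulated and 2318 to 3619 CPM in unstimulated libraries, so that their sum was high in all 9. Single T cell markers moved within these sums. Of 13, 2 rose and 3 fell in inhibitor against stimulated cells (21.7% and 22.8% of all genes). With stimulation 2 rose and 6 fell (32.0% and 34.0% of all genes). Cd4 averaged 323 ± 3.18 CPM in inhibitor and 184 ± 2.58 CPM in stimulated cells. Cd8a averaged 108 ± 9.26 and 149.5 ± 13.3 CPM in these groups, and Cd8b1 113.5 ± 5.82 and 110.8 ± 2.62 CPM. Of 14 myeloid and dendritic markers, all 14 were lower in stimulated than in unstimulated cells (34.0% of all genes), and they summed to 35.6 to 39.7 CPM, against 1047 to 2061 CPM. In inhibitor cells they summed to 78.6 to 96.7 CPM, and 5 of 14 were higher than in stimulated cells and 0 lower (21.7% and 22.8% of all genes). C1qa, C1qb, C1qc, Clec9a and Siglech were at 0 in all stimulated libraries. Of 10 B cell markers, 9 were lower with stimulation (34.0% of all genes) and 4 were higher in inhibitor than in stimulated cells (21.7% of all genes). Their sums were 148 to 152 CPM in inhibitor, 77.4 to 86.0 CPM in stimulated and 544 to 1493 CPM in unstimulated libraries. All 5 NK markers were lower in each comparison. Of all genes 34.0% were lower with stimulation, 22.8% in inhibitor against stimulated and 26.1% in inhibitor against unstimulated cells. The NK markers summed to 2.05 to 2.28 CPM in inhibitor, 14.0 to 17.4 CPM in stimulated and 168 to 194 CPM in unstimulated libraries. Erythroid and platelet markers summed to 0.436 to 7.29 CPM in inhibitor, 1.56 to 4.78 CPM in stimulated and 31.0 to 571 CPM in unstimulated libraries. Unstimulated library 2 had the highest myeloid and B cell sums of its group and the lowest T cell marker sum. It was also lowest of its group for Gbp3, Gbp4, Gbp5, Gbp6, Gbp7, Gbp9 and Igtp, but not for Gbp2, Gbp8 or Irgm1. The part of other cells in the changes of the GTPase genes was not tested.

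Depth bears on all values. Il2ra and Nfkbia were read as check genes and are not stable references. The libraries held 34009988 to 56221174 counts in all, and a GTPase gene had between 127 and 19642 counts in a library. In inhibitor library 1 a count was present for 30106 genes, and for 20547 to 23223 genes in each of the remaining 8 libraries. Leaving it out together with unstimulated library 2 kept 9 calls of the 10 genes with the inhibitor against stimulated cells and added Gbp3 (0.22, adjusted p = 0.034). Il2ra, a marker of T cell activation, averaged 564 CPM in inhibitor, 1518 CPM in stimulated and 22.7 CPM in unstimulated cells. Nfkbia, an NF-kB target that encodes its inhibitor IkB-alpha, averaged 267 ± 35.9 CPM in inhibitor, 153 ± 5.55 CPM in stimulated and 166 ± 20.7 CPM in unstimulated cells, higher in inhibitor than in stimulated cells (log2 fold change 0.81, adjusted p = 0.00037).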

How the data were processed

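Total RNA of 9 libraries (3 per group) was analysed from the table that the authors deposited, which holds whole-number read counts per gene, not normalized. Per the submitters' processing notes, reads were aligned with STAR 2.7.1a to mm10 and counted with featureCounts. The sources used here do not give the annotation release, how strand was set or how mates were counted. In each library 70.6% to 78.5% of the counts from 1 to 10 were even, so a fragment may often count as 2. The library kit keeps strand, per the labels' protocols. Identifiers were named with GENCODE M21, which held 49412 of them, and 0 columns were left unused.

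Genes were kept with filterByExpr and scaled with TMM factors (0.925 to 1.122) in edgeR 4.0.16 (R 4.3.3). One quasi-likelihood fit (glmQLFit, glmQLFTest) held all 9 libraries with the group as its term and 6 residual degrees of freedom. Two-sided tests had Benjamini-Hochberg adjustment over 18374 genes, with calls below 0.05. The ± of a log2 fold change is an approximate SE, its size over the square root of the F statistic. The script was tested on simulated data. Libraries of the same group differed by more than counting error (chi-square over its degrees of freedom, 30.0 to 112), so each is 1 sample. Same-numbered inhibitor and stimulated libraries deviated slightly together from their group means (r 0.112 to 0.143 in the 3 pairs, -0.106 to 0.001 in the 6 others). The numbers, which the labels give without a meaning, may pair these groups. Same-numbered inhibitor and unstimulated libraries stood apart from the others in the opposite direction (r -0.233 to -0.17, against 0.041 to 0.147), so such values cannot establish a pairing. For stimulated and unstimulated libraries of the same number r was -0.03 to 0.001. Fits with the number as a block were alternatives. DESeq2 1.42.0, limma 3.58.1, other scalings, filters and left-out libraries were alternatives.

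The members and the gene lists were chosen with earlier results of these data known. All 10 genes are described. Of the lists, fixed pathway genes are named (Irf1, Irf8, Ifng, Ifngr1, Ifngr2, Socs1, Nlrc5, Irgm2, Iigp1, Tgtp1, Ifi47, Gbp10, Gbp11 and Gbp2b) and, per list and comparison, up to 3 called genes with the largest rise and 3 with the largest fall among those of at least 1 CPM. A further gene of the rule is not reported here. Likeness was measured to the gene with the highest mean Pearson r to the other 9. Promoter motifs were searched in RefSeq windows with Python 3.11.15, and windows of 75 bases were compared between exons.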

Additional observations from a re-analysis of the deposited data

How the results depend on the processing

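Of 577 values of the 10 genes under 20 other settings (17 planned, 3 chosen after seeing the data), 549 kept their direction and their side of the threshold, 11 lost a call, 4 gained one and 13 changed sign, all 13 in values that were not called. Calls of Gbp2, Gbp4, Gbp5, Gbp6, Gbp9 and Igtp held in all 3 comparisons under every setting that tested them (Gbp6 was not tested at a minimum of 10 CPM). The count of genes lower in inhibitor than in unstimulated cells, 2, became 1 in a fit of only the 6 libraries compared and with a replicate block, and was 1 to 2 with single libraries left out. Each time the lost call was that of Gbp3 (-0.31, adjusted p = 0.052 with the block). The block over all 9 libraries changed no other call. In inhibitor against stimulated cells, whose numbers may pair, the block with only the 6 libraries compared gave 10 genes higher, Gbp3 added (0.211, adjusted p = 0.0213), as did the 6 libraries without it. Of unstimulated libraries, equal numbers deviated less alike than others with inhibitor libraries (r -0.233 to -0.17 against 0.041 to 0.147). With stimulated libraries they deviated no more alike than others (r -0.03 to 0.001 against -0.038 to 0.046). For Irgm1 with stimulation the value was -0.037 with RLE size factors, -0.213 with upper-quartile scaling, -0.182 at 10 CPM or more, -0.038 with DESeq2, -0.004 with limma voom, -0.01 without inhibitor library 1 and unstimulated library 2, -0.009 with counts halved, and -0.038 to 0.097 with single libraries left out. For Gbp8 in inhibitor against unstimulated cells it was -0.004, -0.058 and -0.065 with upper-quartile scaling, at 10 CPM or more and without those 2 libraries. Gbp7 lost its call there with the same 3 settings (adjusted p 0.0651, 0.0852 and 0.0693) and without inhibitor library 2. Upper-quartile scaling moved the median of all genes with stimulation to -0.27, against -0.05, and that with the inhibitor to 0.16, against 0.03. The causes were not tested. The lowest count of these genes in a library was 127, and intervals from counts would be too narrow where both mates were counted.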
